A study of Drosophila melanogaster with 14 samples.

Results

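The comparison set the α′/β′ Kenyon cells of the Drosophila melanogaster mushroom body against the α/β Kenyon cells, by the RNA of their purified nuclei. It compared 10 of the 14 libraries of the series, namely the 4 whose driver line labels α′/β′ cells and the 6 whose driver line labels α/β cells. The genes tested were 8646 of the 13931 in the table, those that reached 10 TPM in at least 1 of the 14 libraries, TPM being a length-scaled share of all transcripts. With only the 10 libraries compared, 8424 genes passed this filter. The α′/β′ libraries came from the split-GAL4 lines MB370B (α′/β′ap+m) and MB418B (α′/β′m), with 2 replicates each. The α/β libraries came from 3 more such lines with 2 replicates each, and these are MB594B for the core cells (α/βc), MB185B for the surface cells (α/βs) and MB371B for the posterior cells (α/βp). In a split-GAL4 line, the active GAL4 protein forms only where both of its separately driven parts are expressed. All flies carried the nuclear tag UNC84-2XGFP under GAL4 control, were 2 to 5 days old and of both sexes, and about 400 heads went into a preparation, so each library pools many animals. MB370B also labels some α′/β′m cells, which is why its libraries are called α′/β′ap+m, and the lines label a few cells outside the mushroom body. The nuclei were taken with an antibody to the tag by tandem affinity purification of intact nuclei sequencing (TAPIN-seq), which reads RNA held in the nucleus.

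Kenyon cells are the intrinsic neurons of the mushroom body. They receive odour input on their dendrites in the calyx and send axons in bundles that form the lobes, where dopamine neurons change the strength of their cholinergic synapses onto output neurons during learning. The classes are born in sequence, γ cells first, then α′/β′ and then α/β cells. α/β cells are best known for the expression of long-term memory, and α′/β′ cells for the acquisition and consolidation of odour memory.

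TPM keep no read depth, and the read numbers of the libraries were not used here. Between 9784 and 11359 genes were above 0 TPM in the α′/β′ libraries and between 6534 and 10323 in the α/β libraries, and the means, 10554 ± 644 and 9302.5 ± 1398 (SD, n = 4 and 6), did not differ at the 0.05 level (two-sided exact permutation test, p = 0.0571, the smallest p over the 210 splits of libraries being 0.00952). The test took each library as a separate unit, although the libraries are replicate pairs of 5 lines, so its p takes no account of line. α/βp replicate 1 stood apart with 6534 genes and with 31 of 84 cytoplasmic ribosomal protein genes listed at 0 TPM, against 3 to 8 in the other 9 libraries. The 2 α′/β′ap+m libraries were unusually alike: over 149 genes at or above 1000 TPM their median absolute log2 difference was 0.0341, against 0.295 for α′/β′m and 0.125 to 0.408 for the 3 α/β pairs. Whether they differ by more than sampling noise cannot be tested without counts, so the main counts are also given with these 2 libraries averaged and counted as 1.

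The labels were checked against marker genes. The neuronal gene elav had 1712, 1614, 1370.2 and 1190.0 TPM in the α′/β′ libraries, against 1029.8, 1267 and 1743 TPM in the α/β libraries, with a log2 difference 0.18 ± 0.19, adjusted p = 0.789. The Kenyon cell regulator eyeless (ey) had 1640.2, 1632, 2127 and 2854 TPM in the α′/β′ libraries, against 631, 1765 and 2809 TPM in the α/β libraries, and the glial gene repo was between 0.07 and 1.72 TPM in α′/β′ libraries and between 0 and 0.82 TPM in α/β libraries. Of 13 neuronal and Kenyon cell reference genes, all tested, 1 was called. It was Mef2, lower in α′/β′ and described below, and dachshund (dac) averaged 205 TPM in α′/β′ and 371 TPM in α/β libraries (log2 difference -0.90, adjusted p = 0.057) without a call. The defining glial gene was near 0 in both classes. Marker lists of other cells differed in part. The summed TPM of 10 fat body genes was 574 to 1977 in α′/β′ and 1645 to 6138 in α/β libraries, and that of 14 muscle genes 207 to 495 in α′/β′ and 531 to 1510 in α/β libraries. Of those lists, Yp1 and apolpp (2 of 6 tested fat body genes, median log2 difference of the list -1.56) and Mhc and Mf (2 of 13 tested muscle genes, median -1.30) were called lower in α′/β′. None of these 4 calls was stable: they were lost in 8 (Yp1), 6 (apolpp), 7 (Mhc) and 7 (Mf) of the 10 fits that each left out 1 library, and with the α′/β′ap+m libraries averaged (adjusted p = 0.156, 0.127, 0.139 and 0.131). By the class means most of the fat body sum was that of Yp1, Yp2 and Yp3, yolk protein genes expressed in females, with Yp1 at 629 TPM in α′/β′ and 1761 TPM in α/β, Yp2 at 191 TPM in α′/β′ and 600.1 TPM in α/β, and Yp3 at 86.0 TPM in α′/β′ and 198 TPM in α/β. In the list of sex-biased genes, which holds these 3, 5 of 5 tested members were at an unadjusted p under 0.05, and Yp1 was the 1 called. The others were the sex determination genes dsx, with means of 4.67 TPM in α′/β′ and 21.9 TPM in α/β, and Sxl, with means of 1951 TPM in α′/β′ and 1573 TPM in α/β. The part of a differing share of the sexes among the heads was not tested. The 12 glial genes summed to 87.5 to 315 TPM in α′/β′ and 146 to 229 TPM in α/β libraries, and the 14 photoreceptor genes to 1079 to 2334 TPM in α′/β′ and 1399 to 4166 TPM in α/β libraries, with 0 of 6 and 0 of 14 tested members called by limma (1 and 3 at an unadjusted p under 0.05). Marker genes of GABAergic, glutamatergic and monoaminergic neurons summed to 35.4 to 114 TPM in α′/β′ and 89.9 to 278 TPM in α/β libraries, with 0 of 6 tested members called (1 at an unadjusted p under 0.05). Among the fat body genes Fbp1 was at 0 in all α′/β′ libraries and Fbp2 in all α/β libraries, and among the muscle genes TpnC4 was at 0 in all α/β libraries. With the summed level of the fat body and muscle lists as a covariate, an alternative chosen after seeing the data, 235 genes were called, 212 of them among the 423 of the fit without it. The part of these cells in the other differences was otherwise not tested, and in such bulk samples fewer cells of a type and less RNA per cell cannot be told apart.

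Of the 8646 genes, 423 were called different between α′/β′ and α/β by limma, where a call needs an adjusted p below 0.05 together with a difference of 2-fold or more. This is 4.89% of the genes tested. In α′/β′, 199 genes were higher (2.3%) and 224 lower (2.59%). The TPM of the 4 α′/β′ libraries did not overlap those of the 6 α/β libraries in 343 of the called genes, 176 higher and 167 lower. Among all genes tested 7.48% did not overlap, 4.63% with α′/β′ higher and 2.86% with α′/β′ lower. With the 2 α′/β′ap+m libraries averaged, 337 genes were called, 183 higher and 154 lower, and 311 of them were among the 423. Libraries are nested in subtypes. With subtype as a random effect 314 genes were called, 148 higher and 166 lower, all among the 423, and with 1 value per subtype 160 were called, 68 higher and 92 lower, 159 of them among the 423. The median log2 difference over all genes tested was 0.072, that of the genes called higher 2.70 and that of the genes called lower -2.49. A difference of at least 16-fold was found for 39 genes called higher and 32 called lower. The calls lay on all chromosome arms in like shares, between 3.9% of the tested genes on chromosome 4 and 5.42% on 2L. The class that stood apart was not always the same: by the log2 of the class mean TPM plus 1, γ was nearer to α/β than to α′/β′ for 121 of the 199 genes called higher and for 87 of the 224 called lower. These means were not quantile-normalized, and that of γ includes γd replicate 1, with 5632 genes above 0 TPM.

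**Figure D1:**
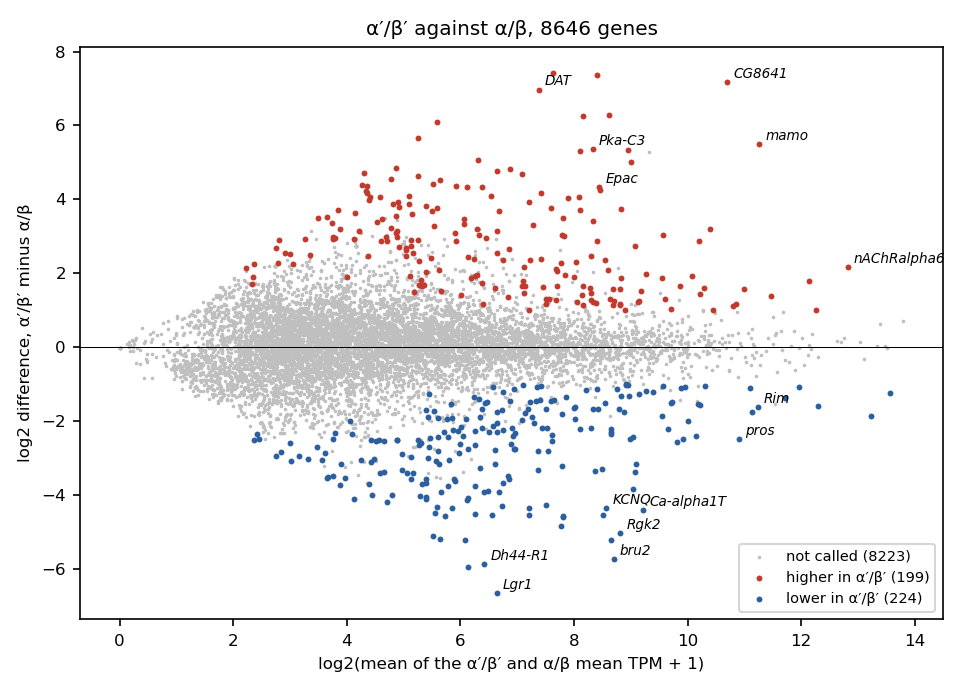
Difference between the classes against level for the 8646 genes tested. The x axis is the log2 of the average of both class means plus 1 (TPM), the y axis the log2 difference of α′/β′ minus α/β. Red points are the 199 genes called higher in α′/β′ and blue points the 224 called lower, and named genes include DAT (6.97) and Lgr1 (-6.64) and nAChRalpha6 among the most abundant.

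Throughout, the values of α′/β′ libraries are given in the order α′/β′ap+m replicates 1 and 2 and α′/β′m replicates 1 and 2, those of α/β libraries as the lowest, the median and the highest of 6, and differences as log2 of α′/β′ over α/β ± standard error on the quantile-normalized log2(TPM + 1) scale. This scale understates the change of genes with low values. Counts of called list members stand beside the shares over all genes tested, 2.3% called higher, 2.59% lower and 4.89% in either direction. With 1 value per subtype, 50 of 104 named called genes lost their calls, which is not always noted gene by gene. They include every named gene that lost its call with a library left out. They also include Octbeta3R, rg, Calx, CASK, Sytbeta, beat-Vb, Sema2b, Adar, numb, PH4alphaSG1 and CG15539.

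Several of the genes highest in α′/β′ relative to α/β lie inside or beside another gene that was called. On 3L, CG8641 (3L:7058930-7077462, BDGP6) had 4001, 3985, 2147 and 2928 TPM in the α′/β′ libraries, against 6.22, 31.4 and 112 TPM in the α/β libraries (log2 difference 7.18 ± 0.71, adjusted p = 2.96e-06). CG34030 and CG14823 lie within CG8641, CG34030 on the same strand and CG14823 on the other, and had log2 differences of 7.37 and 6.24. CG34260 lies within crimpy (cmpy, 3L:20712838-20719200) on the opposite strand and had a log2 difference of 7.42. crimpy codes for a transmembrane protein that binds a bone morphogenetic protein ligand at the neuromuscular junction. It had 729, 664, 687 and 985 TPM in the α′/β′ libraries, against 2.76, 13.9 and 24.5 TPM in the α/β libraries (log2 difference 6.28 ± 0.52, adjusted p = 4.67e-07). Both outer genes were chosen among called genes without overlap between the classes. saturn within nuf and CG13984 within Ddr, each on the strand of its outer gene, followed with log2 differences of 6.09 and 5.66, and both were listed at 0 TPM in 4 of the 6 α/β libraries. Reads of such overlapping genes cannot be told apart in these tables. PH4alphaSG1, a prolyl hydroxylase subunit gene, and its neighbour CG15539 rose as well, with log2 differences of 5.34 and 5.31. For both, α/βp was below the other α/β subtypes, and both lost their calls with the fat body and muscle covariate (adjusted p = 0.167 and 0.157).

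mamo, a zinc finger transcription factor gene (X:13846116-13990527), had 4663, 4545, 6745 and 3055 TPM in the α′/β′ libraries, against 56.4, 88.7 and 303 TPM in the α/β libraries (log2 difference 5.50 ± 0.40, adjusted p = 9.97e-08), and its highest α/β library was an α/βp library. Pka-C3 (3L:15925805-15954797) codes for a protein kinase of the family of catalytic subunits of cAMP-dependent kinase. It had 712, 698, 758 and 312 TPM in the α′/β′ libraries, against 5.94, 14.6 and 72.3 TPM in the α/β libraries (log2 difference 5.37 ± 0.53, adjusted p = 2.57e-06). In both genes the lowest α′/β′ library was α′/β′m replicate 2.

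The genes lowest in α′/β′ relative to α/β included 3 receptors of peptide hormones, described below with their family. bru2, an RNA-binding protein gene of the Bruno family (2L:12344219-12397528), had 16.5, 14.3, 21.4 and 19.4 TPM in the α′/β′ libraries, against 160.3, 1014 and 1094 TPM in the α/β libraries (log2 difference -5.73 ± 0.52, adjusted p = 1.17e-06), and CG17010 within it on the same strand had a log2 difference of -5.93. limpet (Lmpt, 3L:16865295-16922487), which codes for a LIM domain protein, had 24.3, 26.7, 26.9 and 25.4 TPM in the α′/β′ libraries, against 394, 767 and 1174 TPM in the α/β libraries (log2 difference -5.21 ± 0.44, adjusted p = 5.51e-07). Its 4 α′/β′ values lay between 24.3 and 26.9 TPM. Rgk2 (2R:18539585-18548969) belongs to a family of GTP-binding proteins that in mammals inhibit voltage-gated calcium channels. It had 33.4, 30.5, 42.5 and 29.4 TPM in the α′/β′ libraries, against 489, 1011 and 1087 TPM in the α/β libraries (log2 difference -5.01 ± 0.32, adjusted p = 3.36e-08). crumbs (crb), an apical polarity gene, was 22.8, 26.9, 17.1 and 26.1 TPM in the α′/β′ libraries, against 213, 434 and 601 TPM in the α/β libraries (log2 difference -4.59 ± 0.33, adjusted p = 9.97e-08). CG31475, CG11406 and CG34354 had log2 differences of -5.19, -5.10 and -4.55. These genes were chosen among called genes whose classes did not overlap, so the lack of overlap is no separate result. α/βp was lower than the other α/β subtypes in bru2, CG17010, Lmpt, Rgk2, crb and CG11406.

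Among genes of the amine transmitters, the dopamine transporter was higher in α′/β′, and 1 serotonin receptor and 2 octopamine receptors were lower. Of 10 tested genes of dopamine receptors, transport and synthesis (median log2 difference -0.04, against 0.072 over all genes tested), 1 was called. It was DAT (2R:16558567-16565238), whose protein carries dopamine back across the plasma membrane, with 394, 399.7, 184 and 339.6 TPM in the α′/β′ libraries, against 0, 0.82 and 8.15 TPM in the α/β libraries (log2 difference 6.97 ± 0.65, adjusted p = 1.88e-06). DAT was thus close to 0 in every α/β library and at 184 TPM or more in every α′/β′ library. ple and Vmat, the dopamine synthesis and vesicle loading genes that mark dopamine neurons, ran at 2.1 to 14.2 and 2.09 to 17.5 TPM in α′/β′ libraries, and at 3.08 to 25.9 and 3.25 to 42.7 TPM in α/β libraries, and neither was called. The dopamine receptors were not called. Dop1R1 had 1006, 1039, 631 and 1079 TPM in the α′/β′ libraries, against 361, 991 and 1229.6 TPM in the α/β libraries (log2 difference 0.14 ± 0.30, adjusted p = 0.911), and DopEcR, a receptor of dopamine and ecdysone, had 4661, 4735, 4093 and 2475 TPM in the α′/β′ libraries, against 3489.6, 5288 and 6508 TPM in the α/β libraries (log2 difference -0.22 ± 0.21, adjusted p = 0.748).

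Of 4 tested serotonin genes (median log2 difference -1.38) 1 was called. It was 5-HT1A, an inhibitory serotonin receptor, with 155, 147, 175 and 191 TPM in the α′/β′ libraries, against 678, 869.6 and 1049.6 TPM in the α/β libraries (log2 difference -2.47 ± 0.31, adjusted p = 3.96e-05). The highest α′/β′ value was thus far below the lowest α/β value. Of 10 tested octopamine and tyramine genes (median -0.40) 2 were called, both lower. Oamb, an octopamine receptor needed for appetitive learning, had 59.4, 53.5, 70.6 and 75.7 TPM in the α′/β′ libraries, against 205, 646 and 892 TPM in the α/β libraries (log2 difference -3.34 ± 0.34, adjusted p = 4.63e-06), and Octbeta3R had 55.3, 46.9, 31.3 and 24.3 TPM in the α′/β′ libraries, against 113, 219.8 and 289 TPM in the α/β libraries (log2 difference -2.76 ± 0.59, adjusted p = 0.00753). Neither overlapped between the classes, and Octbeta3R lost its call with the fat body and muscle covariate (adjusted p = 0.208). Octbeta1R had 367, 391, 583 and 653 TPM in the α′/β′ libraries, against 476, 1432 and 1502 TPM in the α/β libraries and missed the threshold (log2 difference -1.16 ± 0.34, adjusted p = 0.0583). Its α/βp values were the lowest of α/β, and it was called without α/βp replicate 1 (adjusted p = 0.00665), without α/βp replicate 2 (adjusted p = 0.0303) and without both (log2 difference -1.63, adjusted p = 0.00047).

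Acetylcholine genes moved in both directions, with 3 of 16 tested members higher and 2 lower (median log2 difference 0.43). Kenyon cells release acetylcholine and also receive it. nAChRalpha6, a subunit of the nicotinic receptor, had 10343, 10191, 16639 and 9347 TPM in the α′/β′ libraries, against 1963, 2705 and 4449.9 TPM in the α/β libraries (log2 difference 2.17 ± 0.16, adjusted p = 9.97e-08), and nAChRalpha7, another subunit, had 1423, 1333, 2923 and 2348 TPM in the α′/β′ libraries, against 133, 239.5 and 686 TPM in the α/β libraries (log2 difference 2.88 ± 0.41, adjusted p = 0.000154). The classes did not overlap for either subunit. nAChRbeta1 had 10894, 10569, 17663 and 11826 TPM in the α′/β′ libraries, against 6584, 7995 and 13375 TPM in the α/β libraries, a difference that passed the p threshold and not the 2-fold threshold (log2 difference 0.65 ± 0.14, adjusted p = 0.01). Ace, the acetylcholinesterase gene, had 435, 382, 556 and 413 TPM in the α′/β′ libraries, against 89.5, 112 and 375 TPM in the α/β libraries (log2 difference 1.61 ± 0.39, adjusted p = 0.0191), without overlap. Its call was lost without α′/β′m replicate 1 (adjusted p = 0.0771), without α′/β′ap+m replicate 1 (0.0518) and with the fat body and muscle covariate (adjusted p = 0.123). Of 3 tested muscarinic receptor genes 2 were called, both lower, and mAChR-C was not (log2 difference 0.85, adjusted p = 0.773). mAChR-A had 162, 132, 64.1 and 112 TPM in the α′/β′ libraries, against 200.4, 284 and 358 TPM in the α/β libraries (log2 difference -1.43 ± 0.25, adjusted p = 0.00129), and mAChR-B had 61.2, 58.1, 24 and 56.2 TPM in the α′/β′ libraries, against 106, 177 and 276 TPM in the α/β libraries (log2 difference -2.19 ± 0.35, adjusted p = 0.00053). For both, every α′/β′ library was below every α/β library, and α′/β′m replicate 1 was the lowest. Both lost their calls with 1 value per subtype (adjusted p = 0.0965 for mAChR-A and 0.0517 for mAChR-B).

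The glutamate list gave 2 higher and 2 lower genes of 13 tested (median log2 difference 0.005). mGluR, the metabotropic glutamate receptor on chromosome 4, had 464, 493, 529.9 and 528 TPM in the α′/β′ libraries, against 16, 33.8 and 97.2 TPM in the α/β libraries (log2 difference 4.07 ± 0.39, adjusted p = 2.36e-06). All 4 α′/β′ values were alike, and α/βp had the highest mean of the α/β subtypes. GluClalpha, a glutamate-gated chloride channel, had 726, 743, 1419.9 and 1169 TPM in the α′/β′ libraries, against 1583, 3792 and 4845 TPM in the α/β libraries (log2 difference -1.75 ± 0.28, adjusted p = 0.000495), also without overlap. Eaat2, an amino acid transporter gene, and GluRIB, a glutamate receptor subunit gene, were called with log2 differences of 1.32 and -1.08. Eaat2 lost the call in 7 of the 10 fits that each left out 1 library (adjusted p up to 0.105) and with the α′/β′ap+m libraries averaged (adjusted p = 0.0664), and GluRIB lost it in 7 of the 10 fits that each left out 1 library (adjusted p up to 0.134). Of 9 tested GABA genes 0 were called by limma (1 at an unadjusted p under 0.05, median -0.18). That gene was Gad1, the GABA synthesis gene, with means of 9.09 TPM in α′/β′ and 62.3 TPM in α/β (log2 difference -2.68, adjusted p = 0.0849). It was called with a separate mean per subtype (adjusted p = 0.00755) and without α/βs replicate 1 (adjusted p = 0.0439). The part of labelled cells outside the mushroom body in this difference was not tested. Rdl, the GABA-A receptor subunit, had 6994, 7048, 11677 and 7187 TPM in the α′/β′ libraries, against 6140.1, 8598 and 10226 TPM in the α/β libraries (log2 difference 0.15 ± 0.17, adjusted p = 0.799).

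**Figure D2:**
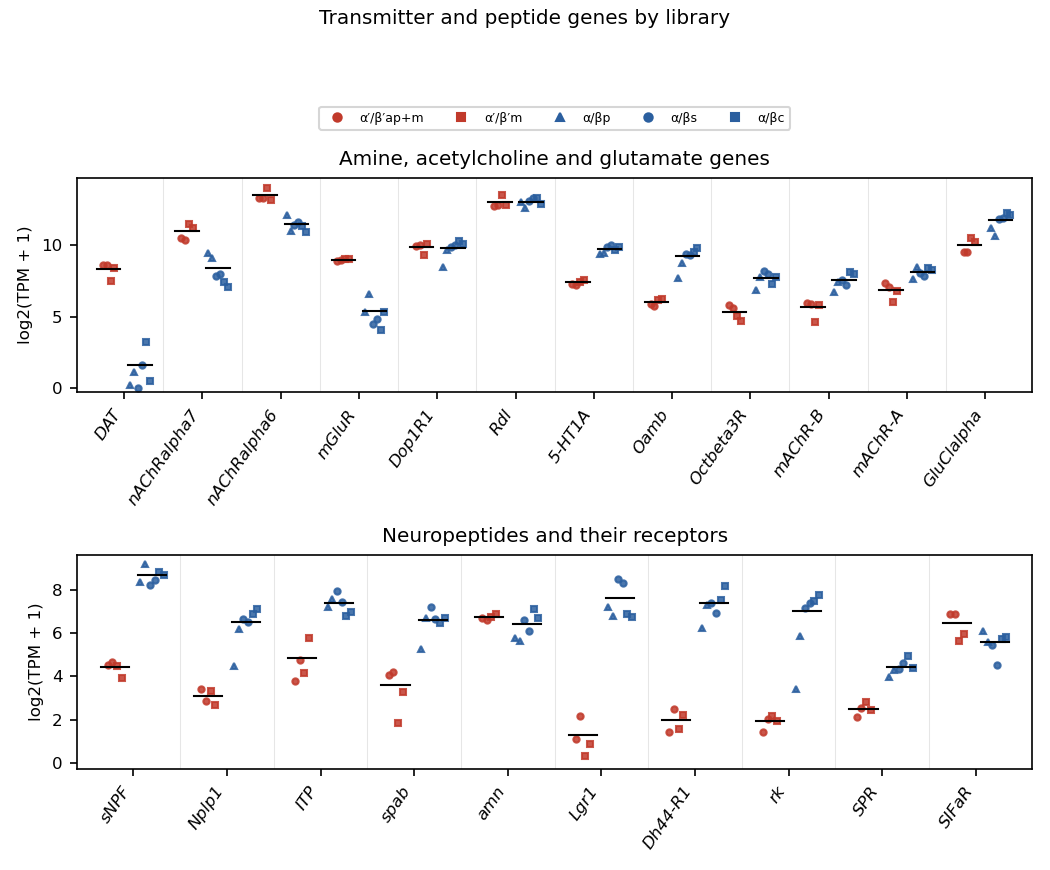
Levels of transmitter and peptide genes in each library, as log2(TPM + 1). Red symbols on the left of each gene are the 4 α′/β′ libraries and blue symbols on the right the 6 α/β libraries, with shapes for the subtypes and black bars for the log2 of the class mean TPM plus 1. DAT, mGluR and both nicotinic subunits sit higher in α′/β′, while all 4 peptide hormone receptors called, among them Lgr1 with 0.25 to 3.45 TPM in α′/β′ and 107 to 372 TPM in α/β, sit lower.

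Neuropeptide genes were mostly lower in α′/β′ where they were called. Of 27 tested (median log2 difference -0.61), 4 were lower and 1 higher (18.5% called, against 4.89% of all genes tested). The short neuropeptide F precursor gene sNPF had 22.3, 24.3, 21.2 and 14.3 TPM in the α′/β′ libraries, against 306, 390.1 and 595 TPM in the α/β libraries (log2 difference -4.83 ± 0.30, adjusted p = 2.25e-08). Nplp1, a neuropeptide precursor gene, had 9.82, 6.26, 8.95 and 5.41 TPM in the α′/β′ libraries, against 21.3, 96.8 and 141 TPM in the α/β libraries (log2 difference -3.91 ± 0.55, adjusted p = 0.000148), and ITP, the gene of ion transport peptide, had 12.8, 26.1, 16.7 and 54.7 TPM in the α′/β′ libraries, against 110.2, 162 and 251 TPM in the α/β libraries (log2 difference -3.14 ± 0.46, adjusted p = 0.000208). In each of these genes all α′/β′ libraries were below all α/β libraries. space blanket (spab) had a log2 difference of -3.75 and a mean of 11.1 ± 6.84 TPM in α′/β′ and 97.4 ± 35.6 TPM in α/β, and lost its call in 4 of the 10 fits that each left out 1 library (adjusted p up to 0.0907). The gene called higher was Ilp2, an insulin-like peptide, with 44.5, 77.3, 58.5 and 126 TPM in the α′/β′ libraries, against 0, 9.97 and 35.5 TPM in the α/β libraries (log2 difference 3.28 ± 0.93, adjusted p = 0.048). It lost its call in 8 of the 10 fits that each left out 1 library (adjusted p up to 0.157) and with the α′/β′ap+m libraries averaged (adjusted p = 0.0799). Ilp2 lies within CG32052 on the same strand, beside Ilp1, which had 291, 276, 171 and 592 TPM in the α′/β′ libraries, against 0.97, 55 and 234 TPM in the α/β libraries (log2 difference 2.63 ± 0.84, adjusted p = 0.0914) and was called without α/βc replicate 1 (adjusted p = 0.0352) or α/βc replicate 2 (adjusted p = 0.0463). Reads of these 2 genes and of the gene around them cannot be told apart here. amnesiac (amn), a peptide gene required for memory, had 104, 97.6, 106 and 117 TPM in the α′/β′ libraries, against 48.4, 83.9 and 138 TPM in the α/β libraries (log2 difference 0.36 ± 0.39, adjusted p = 0.793), with overlapping classes. Of 13 tested genes of peptide processing and dense-core vesicles (median -0.17, 7.69% called) sNPF, which is also on that list, was the 1 called.

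Receptors of neuropeptides and hormones gave 4 lower and 0 higher genes of 26 tested (15.4% called, against 4.89% of all genes tested), with a median log2 difference of -0.82. Lgr1 (3R:17725777-17733207), a glycoprotein hormone receptor, had 1.14, 3.45, 0.25 and 0.83 TPM in the α′/β′ libraries, against 107, 133 and 372 TPM in the α/β libraries (log2 difference -6.64 ± 0.57, adjusted p = 6.84e-07). Dh44-R1 (2R:14378097-14385359), a receptor of diuretic hormone 44, had 1.69, 4.54, 1.93 and 3.7 TPM in the α′/β′ libraries, against 75.3, 163 and 291 TPM in the α/β libraries (log2 difference -5.86 ± 0.49, adjusted p = 4.67e-07). rickets (rk, 2L:13982743-14001248), the receptor of the hormone bursicon, had 1.7, 3.07, 3.47 and 2.81 TPM in the α′/β′ libraries, against 9.66, 156 and 221 TPM in the α/β libraries (log2 difference -5.21 ± 0.69, adjusted p = 7.76e-05). All 3 were below 5 TPM in every α′/β′ library. The lowest α/β values of rk were those of α/βp. The sex peptide receptor gene SPR, which also responds to myoinhibitory peptides, had 3.38, 4.71, 6.11 and 4.49 TPM in the α′/β′ libraries, against 14.9, 19.6 and 29.7 TPM in the α/β libraries (log2 difference -2.31 ± 0.55, adjusted p = 0.017). SPR lost its call without either α′/β′ap+m library or without α′/β′m replicate 2 (adjusted p from 0.0534 to 0.0643), with the fat body and muscle covariate (adjusted p = 0.123) and with the α′/β′ap+m libraries averaged (adjusted p = 0.0555). SIFaR had 117, 120.3, 49 and 62.5 TPM in the α′/β′ libraries, against 22, 49.6 and 68.6 TPM in the α/β libraries (log2 difference 0.83 ± 0.37, adjusted p = 0.293).

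The cAMP list held 8 called genes of 21 tested (38.1%, against 4.89% of all genes tested), with 3 higher and 5 lower and a median log2 difference of -0.049. The 5 lower genes were Pde8, CrebA, Akap200, and Pde6 and Pde9, which act on cGMP, so the share is not one of cAMP genes alone. Akap200 had means of 120 TPM in α′/β′ and 398 TPM in α/β libraries (log2 difference -1.60, adjusted p = 0.0336). cAMP is the second messenger through which dopamine acts on Kenyon cells, and it is made by adenylyl cyclases, read by cAMP-dependent kinase and Epac, and broken down by phosphodiesterases. Of the readers of cAMP, Epac, an exchange factor for the GTPase Rap, had 685, 712, 468 and 761 TPM in the α′/β′ libraries, against 26.8, 30.9 and 77.6 TPM in the α/β libraries (log2 difference 4.34 ± 0.31, adjusted p = 9.93e-08), and Pka-C3 rose as given above. The kinase subunits Pka-C1 and Pka-R2 were not called. Pka-C1 had 2631, 2654, 1519.9 and 1427 TPM in the α′/β′ libraries, against 2215, 2477 and 2933 TPM in the α/β libraries (log2 difference -0.30 ± 0.20, adjusted p = 0.589), and Pka-R2 had 2791, 2756, 3511 and 2327 TPM in the α′/β′ libraries, against 3504, 4563 and 6945 TPM in the α/β libraries (log2 difference -0.60 ± 0.13, adjusted p = 0.00915), with Pka-R2 past the p threshold and under the 2-fold threshold. rugose (rg), which codes for a kinase anchor protein, had 579, 558, 685 and 600.3 TPM in the α′/β′ libraries, against 217, 278 and 414 TPM in the α/β libraries (log2 difference 1.14 ± 0.22, adjusted p = 0.00312), without overlap, and lost its call with the fat body and muscle covariate (adjusted p = 0.0847).

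Of 6 tested phosphodiesterase genes 3 were called, all lower. Pde8, whose enzyme breaks down cAMP, had 126, 128, 127 and 177 TPM in the α′/β′ libraries, against 419.8, 685 and 935 TPM in the α/β libraries (log2 difference -2.34 ± 0.26, adjusted p = 8.98e-06). Pde6 and Pde9, whose enzymes act on cGMP, had 5.8, 5.97, 6.97 and 18.9 TPM in the α′/β′ libraries, against 29.6, 123 and 203 TPM in the α/β libraries (log2 difference -4.12 ± 0.52, adjusted p = 3.96e-05) and 47.2, 43, 118 and 93.8 TPM in the α′/β′ libraries, against 245, 280.1 and 499 TPM in the α/β libraries (log2 difference -2.37 ± 0.38, adjusted p = 0.000528). The classes did not overlap for any of the 3. dunce (dnc), the cAMP phosphodiesterase known from learning mutants, was not called, with 971, 987, 1110.1 and 1102 TPM in the α′/β′ libraries, against 759, 909 and 1644 TPM in the α/β libraries (log2 difference 0.14 ± 0.18, adjusted p = 0.829). Pde1c, with means of 1255 TPM in α′/β′ and 911 TPM in α/β (log2 difference 0.51, adjusted p = 0.264), and Pde11 (log2 difference -0.93, adjusted p = 0.724) were not called either. CrebA, a bZIP factor of secretory genes, had a log2 difference of -2.51 and lost its call in 8 of the 10 fits that each left out 1 library (adjusted p up to 0.14) and with the α′/β′ap+m libraries averaged (adjusted p = 0.122). Of 15 tested genes of heterotrimeric G proteins and their regulators 0 were called by limma (2 at an unadjusted p under 0.05, median -0.0016). Galphao had 1220.1, 1302, 816 and 834 TPM in the α′/β′ libraries, against 1196, 1620.0 and 1699 TPM in the α/β libraries (log2 difference -0.52 ± 0.21, adjusted p = 0.245).

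Of 23 tested genes of calcium handling and protein kinase C, 1 was higher and 2 lower (median log2 difference -0.15). Calx, the sodium/calcium exchanger, had 422, 448, 444 and 528 TPM in the α′/β′ libraries, against 125, 215 and 289 TPM in the α/β libraries (log2 difference 1.20 ± 0.25, adjusted p = 0.00633). Plc21C, a phospholipase C that acts downstream of G proteins, had 321, 303, 242 and 291 TPM in the α′/β′ libraries, against 843, 1956 and 2141 TPM in the α/β libraries (log2 difference -2.48 ± 0.28, adjusted p = 1.04e-05), with α/βp lowest among the α/β subtypes. CASK, a membrane scaffold kinase, had 593, 565, 613 and 586 TPM in the α′/β′ libraries, against 1014, 1248 and 1831 TPM in the α/β libraries (log2 difference -1.11 ± 0.19, adjusted p = 0.00108). The 4 α′/β′ values of CASK lay between 565 and 613 TPM, and the lowest α/β value was 1014 TPM. Calx and CASK lost their calls with the fat body and muscle covariate (adjusted p = 0.227 and 0.0615). Both also lost them with 1 value per subtype, with median-ratio scaling and without the 2 α/βp libraries. Calmodulin (Cam) had 3028, 3090.1, 3177 and 1904 TPM in the α′/β′ libraries, against 2458, 3476 and 8659 TPM in the α/β libraries (log2 difference -0.41 ± 0.26, adjusted p = 0.57).

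Of 33 tested ion channel genes 7 were lower in α′/β′ and 1 higher (24.2% called, against 4.89% of all genes tested, median log2 difference -0.063). Ca-alpha1T, the T-type calcium channel that opens at low voltage, had 40.8, 41.9, 93.5 and 106 TPM in the α′/β′ libraries, against 968, 1107 and 1296 TPM in the α/β libraries (log2 difference -4.39 ± 0.35, adjusted p = 2.36e-07). Within α′/β′, both α′/β′m libraries were above both α′/β′ap+m libraries. KCNQ, a slow potassium channel, had 47.5, 43.1, 23.5 and 68.2 TPM in the α′/β′ libraries, against 536, 716 and 836 TPM in the α/β libraries (log2 difference -4.34 ± 0.38, adjusted p = 7.99e-07). Irk1, an inward rectifier, had 1.03, 0.57, 2.9 and 0.65 TPM in the α′/β′ libraries, against 9.07, 24.4 and 40.5 TPM in the α/β libraries (log2 difference -3.49 ± 0.70, adjusted p = 0.00432), and Elk, a potassium channel of the ether-a-go-go family, had 174, 147, 123 and 146 TPM in the α′/β′ libraries, against 278, 956 and 1579 TPM in the α/β libraries (log2 difference -2.44 ± 0.45, adjusted p = 0.00207). All 4 channels were without overlap between the classes, and Irk1 and Elk lost their calls with 1 value per subtype (adjusted p = 0.0509 and 0.0858). quiver (qvr, also sleepless), which codes for a small protein that promotes the Shaker potassium current, had 2052, 1975, 3287 and 2135 TPM in the α′/β′ libraries, against 796, 1067 and 2173 TPM in the α/β libraries (log2 difference 1.12 ± 0.25, adjusted p = 0.00961), with overlap, and lost its call without α′/β′m replicate 1 (adjusted p = 0.0516) and with the fat body and muscle covariate (adjusted p = 0.0961). Shaker itself (Sh) had 8033, 7939, 15390.5 and 8887 TPM in the α′/β′ libraries, against 7232, 10869 and 14929 TPM in the α/β libraries (log2 difference 0.047 ± 0.13, adjusted p = 0.928), and the sodium channel gene para had 3862, 3713, 5950.1 and 3570.2 TPM in the α′/β′ libraries, against 3251, 4544 and 8604 TPM in the α/β libraries (log2 difference -0.031 ± 0.18, adjusted p = 0.968).

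**Figure D3:**
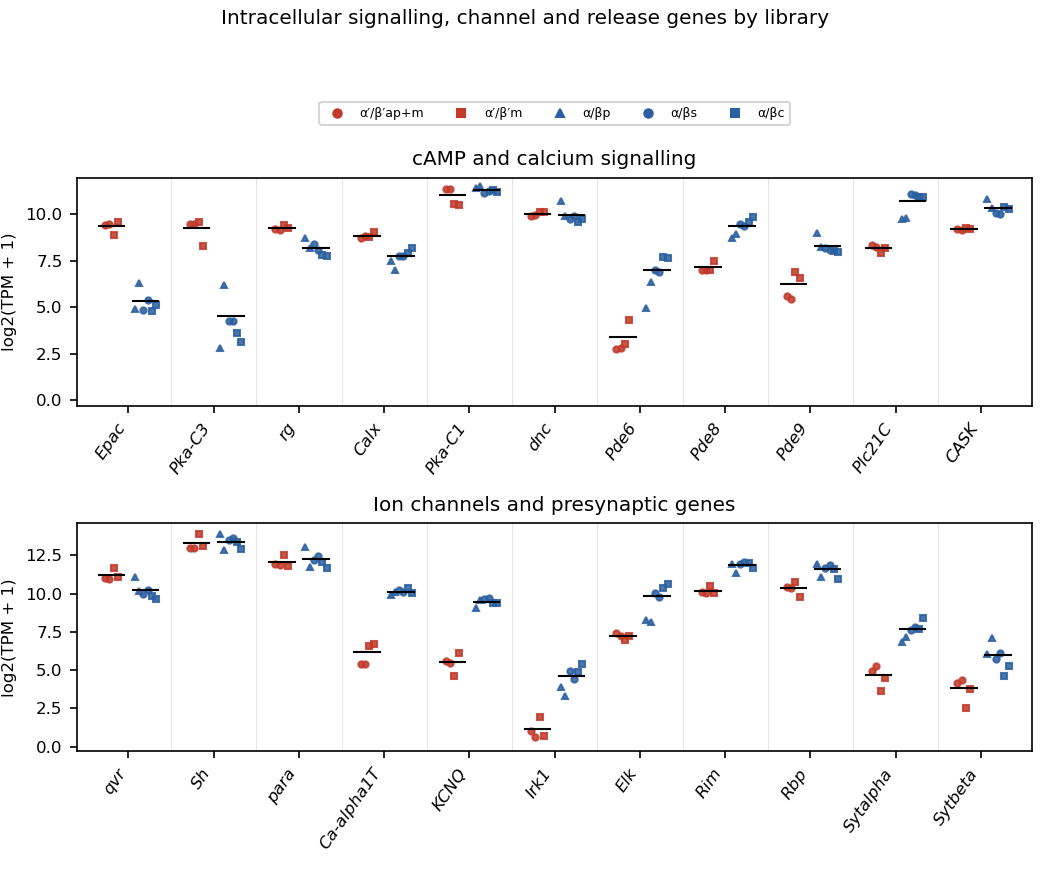
Levels of cAMP, calcium, ion channel and presynaptic genes in each library, as log2(TPM + 1). Red symbols on the left of each gene are the 4 α′/β′ libraries and blue symbols on the right the 6 α/β libraries, with shapes for the subtypes and black bars for the log2 of the class mean TPM plus 1. Epac and Pka-C3 sit higher in α′/β′, and Pde6, Pde8, Pde9, Ca-alpha1T (40.8 to 106 TPM in α′/β′, 968 to 1296 TPM in α/β) and KCNQ lower, while Pka-C1, dnc, Sh and para overlap.

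Presynaptic release genes gave 4 lower and 0 higher members of 38 tested (10.5% called, against 4.89% of all genes tested, median log2 difference 0.03). Rim, an active zone scaffold that couples vesicles to calcium channels, had 1106, 1034, 1449.7 and 1032 TPM in the α′/β′ libraries, against 2617, 3906 and 4278 TPM in the α/β libraries (log2 difference -1.61 ± 0.16, adjusted p = 2.37e-06). Its partner Rbp (RIM-binding protein) had 1383, 1329, 1719 and 873 TPM in the α′/β′ libraries, against 1999.5, 3209 and 3969 TPM in the α/β libraries (log2 difference -1.10 ± 0.24, adjusted p = 0.00888), and fell short of the 2-fold threshold without α′/β′m replicate 2 (log2 difference -0.92). Synaptotagmins are calcium sensors of vesicle fusion. Sytalpha had 29.3, 38, 11.8 and 21.4 TPM in the α′/β′ libraries, against 113, 199 and 335 TPM in the α/β libraries (log2 difference -3.48 ± 0.39, adjusted p = 1.09e-05), and Sytbeta had 17.2, 19.4, 4.73 and 12.5 TPM in the α′/β′ libraries, against 23.5, 58.8 and 134 TPM in the α/β libraries (log2 difference -2.57 ± 0.49, adjusted p = 0.00282). The classes did not overlap for any of these 4, and Sytbeta lost its call with the fat body and muscle covariate (adjusted p = 0.109). The genes of the release machinery with the highest levels were not called. cpx, the complexin gene, had 13029.5, 12968, 10688 and 7309 TPM in the α′/β′ libraries, against 10195, 11749 and 13925 TPM in the α/β libraries (log2 difference 0.035 ± 0.17, adjusted p = 0.963), and unc-13, a vesicle priming gene, had 3929, 3893, 6552 and 5857 TPM in the α′/β′ libraries, against 3386, 4339 and 5081 TPM in the α/β libraries (log2 difference 0.35 ± 0.22, adjusted p = 0.55).

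Surface recognition genes were called in both directions. Dpr proteins bind DIP proteins on partner neurons, and of 29 tested Dpr and DIP genes 3 were higher and 2 lower (median log2 difference -0.23). dpr8, the most abundant of the 5 called, had 3187, 3143, 2877 and 2705 TPM in the α′/β′ libraries, against 632, 1125 and 1279 TPM in the α/β libraries (log2 difference 1.58 ± 0.21, adjusted p = 9.02e-05). dpr15 had 47.2, 45.4, 55.2 and 74.1 TPM in the α′/β′ libraries, against 0.11, 3.87 and 5.47 TPM in the α/β libraries (log2 difference 3.80 ± 0.60, adjusted p = 0.000489), and its neighbour dpr17 had 166, 164, 331 and 316 TPM in the α′/β′ libraries, against 0.96, 4.32 and 82.9 TPM in the α/β libraries (log2 difference 4.69 ± 0.92, adjusted p = 0.00331), the highest α/β values of dpr17 being those of α/βp. dpr3 had 9.25, 6.85, 11.4 and 22.2 TPM in the α′/β′ libraries, against 75.2, 102 and 153 TPM in the α/β libraries (log2 difference -3.60 ± 0.58, adjusted p = 0.0005). In these 4 genes the classes did not overlap, and dpr17 lost its call with 1 value per subtype (adjusted p = 0.0969). dpr5 was lower by a log2 difference of -2.53, with overlap, and lost its call without replicate 2 of α′/β′ap+m (adjusted p = 0.0534). With the fat body and muscle covariate dpr3 and dpr5 lost their calls (adjusted p = 0.0625 and 0.0675).

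Of 39 other tested immunoglobulin surface genes 4 were higher and 5 lower (median log2 difference -0.32). Lachesin (Lac), an adhesion gene, had 250.2, 266, 104 and 130.0 TPM in the α′/β′ libraries, against 0.58, 6.36 and 35.2 TPM in the α/β libraries (log2 difference 4.77 ± 0.70, adjusted p = 0.000201), with both α′/β′ap+m libraries above both α′/β′m libraries. beat-Vb, a member of the beaten path family of receptors, had 73.5, 105, 77.7 and 112 TPM in the α′/β′ libraries, against 0, 4.7 and 16.9 TPM in the α/β libraries (log2 difference 4.53 ± 1.00, adjusted p = 0.0091). kirre, an adhesion gene with a role in muscle fusion, had 3.02, 4.91, 11.7 and 9.58 TPM in the α′/β′ libraries, against 32.9, 55.3 and 87.1 TPM in the α/β libraries (log2 difference -3.39 ± 0.53, adjusted p = 0.000458). Fas2, an adhesion gene of axon bundles, had 102, 98.8, 196 and 98.8 TPM in the α′/β′ libraries, against 619.5, 1038 and 1119.8 TPM in the α/β libraries (log2 difference -3.16 ± 0.34, adjusted p = 7.81e-06). In these 4 genes the classes did not overlap, and beat-Vb lost its call with the fat body and muscle covariate (adjusted p = 0.389). The calls of beat-VI (2.99), kek1 (1.57), kek3 (-1.68) and kek5 (-1.78) were lost with the α′/β′ap+m libraries averaged (adjusted p = 0.0594, 0.0717, 0.17 and 0.0547) and in 8, 8, 7 and 2 of the 10 fits that each left out 1 library, kek5 without either α′/β′ap+m library.

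Axon guidance genes gave 3 higher and 1 lower of 25 tested (median log2 difference 0.08). Sema2b, a secreted semaphorin, had 187, 176, 231 and 245 TPM in the α′/β′ libraries, against 41.1, 57.7 and 99.4 TPM in the α/β libraries (log2 difference 1.80 ± 0.30, adjusted p = 0.000649). unc-5, a repulsive netrin receptor, had 10.4, 13.4, 2 and 16.3 TPM in the α′/β′ libraries, against 20.7, 121 and 214 TPM in the α/β libraries (log2 difference -4.07 ± 0.52, adjusted p = 4.64e-05). Both were without overlap, and Sema2b lost its call with the fat body and muscle covariate (adjusted p = 0.0561). Derailed (drl) and Drl-2, receptors of the ligand Wnt5, were called higher with log2 differences of 1.60 and 1.99. Both lost their calls with the α′/β′ap+m libraries averaged (adjusted p = 0.0762 and 0.1), and drl in 3 and Drl-2 in 8 of the 10 fits that each left out 1 library. Sema1a did not overlap but was under the 2-fold threshold (log2 difference 0.84 ± 0.18, adjusted p = 0.00615).

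In the cadherin, teneurin and leucine-rich repeat list 2 of 21 tested genes were lower (median log2 difference -0.20). Ten-a, a teneurin that matches partner neurons in the antennal lobe, had 173, 177, 225 and 170.0 TPM in the α′/β′ libraries, against 257, 389 and 671 TPM in the α/β libraries (log2 difference -1.15 ± 0.27, adjusted p = 0.0128), and fell just short of the 2-fold threshold without α/βp replicate 1 (log2 difference -0.99). Its call was also lost with the fat body and muscle covariate (adjusted p = 0.148). kugelei (kug), an atypical cadherin, had 2.97, 1.66, 23.4 and 46 TPM in the α′/β′ libraries, against 23, 229 and 339 TPM in the α/β libraries (log2 difference -3.90 ± 0.95, adjusted p = 0.019). It lost its call without either α′/β′ap+m library (adjusted p = 0.0877 and 0.0886) or with both averaged (adjusted p = 0.0873). trio, a guanine nucleotide exchange factor gene whose protein is used as an α′/β′ marker, had 1689.8, 1612, 793 and 1284 TPM in the α′/β′ libraries, against 66.5, 197 and 231 TPM in the α/β libraries (log2 difference 3.04 ± 0.29, adjusted p = 2.37e-06), without overlap between the classes.

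Transcription and identity factors gave 2 higher and 3 lower of 19 tested in the list of Kenyon cell and temporal regulators (median log2 difference -0.63). mamo rose as given above. prospero (pros), a homeodomain factor of neuronal differentiation, had 657, 686, 579 and 403 TPM in the α′/β′ libraries, against 2495, 3135 and 4437 TPM in the α/β libraries (log2 difference -2.47 ± 0.22, adjusted p = 1.09e-06), and Mef2, a MADS factor of Kenyon cell development, had 269, 301, 296 and 304 TPM in the α′/β′ libraries, against 646, 1301 and 2068 TPM in the α/β libraries (log2 difference -2.20 ± 0.29, adjusted p = 8.06e-05). Every α′/β′ library was below every α/β library for both. broad (br) had 65.6, 68.3, 113 and 108 TPM in the α′/β′ libraries, against 157, 213 and 1504 TPM in the α/β libraries (log2 difference -2.17 ± 0.60, adjusted p = 0.0419), and its highest α/β values were those of α/βp. Imp, an RNA-binding temporal regulator, was higher by a log2 difference of 1.64, with 372 and 356 TPM in the α′/β′ap+m libraries and 204 and 118 TPM in the α′/β′m libraries. The calls of br and Imp were lost with the α′/β′ap+m libraries averaged (adjusted p = 0.13 and 0.111) and in 6 and 7 of the 10 fits that each left out 1 library. twin of eyeless (toy) had 2206, 2260.5, 2402 and 2138 TPM in the α′/β′ libraries, against 1714, 2343 and 2747 TPM in the α/β libraries (log2 difference 0.035 ± 0.20, adjusted p = 0.968).

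zfh2, a zinc finger homeodomain gene, was the 1 called of 29 tested homeodomain and patterning genes (3.45% called, median log2 difference -0.44), with 395, 399, 343 and 393 TPM in the α′/β′ libraries, against 29.3, 42.9 and 106 TPM in the α/β libraries (log2 difference 3.04 ± 0.44, adjusted p = 0.000192). Of 17 tested nuclear receptors (median -0.28) Hr39 alone was called (5.88%, against 4.89% of all genes tested), lower by a log2 difference of -1.14. It lost its call in 8 of the 10 fits that each left out 1 library (adjusted p up to 0.125) and with the α′/β′ap+m libraries averaged (adjusted p = 0.0962).

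RNA-binding genes were called in 8 of 38 tested members, 4 higher, Imp among them, and 4 lower (median log2 difference 0.005). Both Musashi family genes were higher. Rbp6 had 2255, 2204, 2916 and 1928 TPM in the α′/β′ libraries, against 116, 205 and 931 TPM in the α/β libraries (log2 difference 3.21 ± 0.46, adjusted p = 0.000158), and musashi (msi) had 646, 701, 537 and 448 TPM in the α′/β′ libraries, against 51.3, 79.9 and 137 TPM in the α/β libraries (log2 difference 2.87 ± 0.40, adjusted p = 0.00013). The editing enzyme gene Adar had 635, 644, 857 and 1004 TPM in the α′/β′ libraries, against 195, 342 and 422 TPM in the α/β libraries (log2 difference 1.25 ± 0.25, adjusted p = 0.00404), and it lies within prage on the same strand. All 3 were without overlap, and Adar lost its call with the fat body and muscle covariate (adjusted p = 0.074). Both called Bruno family genes were lower. bru1 had 58.8, 48.7, 33.4 and 70.2 TPM in the α′/β′ libraries, against 149, 318 and 483 TPM in the α/β libraries (log2 difference -2.81 ± 0.30, adjusted p = 7.81e-06), and bru2 fell as given above. The splicing factor gene Rbfox1 had 329.6, 327, 439 and 279 TPM in the α′/β′ libraries, against 623, 809 and 869.8 TPM in the α/β libraries (log2 difference -1.25 ± 0.20, adjusted p = 0.000489). bru1, bru2 and Rbfox1 were lower in every α′/β′ library than in every α/β library, and Rbfox1 lost its call with 1 value per subtype (adjusted p = 0.0501). hephaestus (heph), a polypyrimidine tract binding protein gene, was lower by a log2 difference of -1.49, and lost its call in 8 of the 10 fits that each left out 1 library (adjusted p up to 0.11) and with the α′/β′ap+m libraries averaged (adjusted p = 0.108).

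Of 12 tested circadian clock genes (median log2 difference 0.0017) 2 were lower. period (per) had 1.63, 0.72, 0.8 and 1.11 TPM in the α′/β′ libraries, against 6.69, 14.4 and 25.2 TPM in the α/β libraries (log2 difference -2.92 ± 0.55, adjusted p = 0.00226), and clockwork orange (cwo), a repressor of the clock, had 39.6, 32.9, 35.2 and 38.7 TPM in the α′/β′ libraries, against 112, 137 and 184 TPM in the α/β libraries (log2 difference -2.27 ± 0.30, adjusted p = 6.53e-05). Both were without overlap, and per was near 1 TPM in all α′/β′ libraries. per lost its call with 1 value per subtype (adjusted p = 0.0761). Of 19 tested Notch and TGF-beta genes (median 0.0018), the Notch inhibitor numb was lower, with 3.44, 7.13, 8.21 and 15.5 TPM in the α′/β′ libraries, against 25.8, 33 and 64.6 TPM in the α/β libraries (log2 difference -2.52 ± 0.49, adjusted p = 0.00319). mastermind (mam), a Notch coactivator, was higher, with 292, 334, 250.2 and 274 TPM in the α′/β′ libraries, against 76.5, 122 and 208 TPM in the α/β libraries (log2 difference 1.29 ± 0.29, adjusted p = 0.0117). Neither overlapped, but mam lost its call without replicate 2 of α′/β′ap+m (adjusted p = 0.0524), and both lost it with the fat body and muscle covariate (adjusted p = 0.0969 for numb and 0.0791 for mam). Of 11 tested activity-regulated genes (median 0.28) CG14186 was lower (log2 difference -1.07 ± 0.31, adjusted p = 0.049), with overlap, and lost its call in 9 of the 10 fits that each left out 1 library (adjusted p up to 0.172). Of 19 tested classical memory genes (median -0.083) the 2 called were Fas2 and rg, both given above. By limma 0 of 22 tested insulin and TOR genes (3 at an unadjusted p under 0.05, median -0.042) and 0 of 5 tested innexins (0 at an unadjusted p under 0.05, median -0.14) were called. Across the 29 lists, 87 different genes were called, and 70 with the 2 α′/β′ap+m libraries averaged.

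Part of the called genes also differed between the subtypes of a class, as did part of all genes tested. Of the 199 genes called higher, the 2 α′/β′ap+m libraries were both above both α′/β′m libraries by at least 2-fold on average in 8 (4.02%) and below in 29 (14.6%). Of the 224 genes called lower, they were above in 12 (5.36%) and below in 36 (16.1%). In all genes tested the shares were 15.9% above and 10.2% below. On the other side, α/βp was above α/βs and α/βc by the same measure in 25 of the genes called higher (12.6%) and below in 19 (9.55%). Of the genes called lower it was above in 16 (7.14%) and below in 46 (20.5%), against 6.1% above and 13% below in all genes tested. In mGluR, mamo, nAChRalpha7, Rbp6 and zfh2 α/βp was thus the α/β subtype with the level nearest to α′/β′, as it was from the other side in bru2, Elk, Oamb, rk and Plc21C. Without both α/βp libraries, 471 genes were called, 210 higher and 261 lower, and 352 of them were among the 423.

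Use of transcripts within genes was tested in 3660 genes with 11495 transcripts, by limma's diffSplice and its Simes test. In 42 genes, which are 1.15% of those tested, the relative use differed at an adjusted p under 0.05. Of these, 23 were also called at the level of the gene and 19 were not. With the 2 α′/β′ap+m libraries averaged, 30 genes passed. Values for a transcript are estimates from short reads, and a transcript at 0 TPM is one to which no reads were assigned.

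The 6 genes with the smallest p are described here. In cpx, whose total was not called, transcript cpx-RG had 366, 431, 482 and 223 TPM in the α′/β′ libraries, against 0, 0 and 174 TPM in the α/β libraries (relative log2 difference 7.67, adjusted p = 7.55e-10), the value above 0 in α/β being that of α/βp replicate 2. cpx-RK, which starts 11517 bases downstream of cpx-RG on 3R, had 17.6, 23.3, 4.15 and 0.61 TPM in the α′/β′ libraries, against 54.5, 655 and 1260.2 TPM in the α/β libraries (relative log2 difference -6.18, adjusted p = 1.48e-06). Of the 18 transcripts of cpx tested, cpx-RG made up 2.81% to 4.51% of the TPM in α′/β′ libraries and 0% to 1.67% in α/β libraries, and cpx-RK made up 0.00835% to 0.18% in α′/β′ libraries and 0.534% to 9.93% in α/β libraries. In unc-13, also not called in total, unc-13-RA had 314, 329, 397 and 392 TPM in the α′/β′ libraries, against 0, 12.2 and 44.7 TPM in the α/β libraries (relative log2 difference 5.36, adjusted p = 1.51e-06). It made up 6.05% to 8.46% of unc-13 in α′/β′ and 0% to 1.32% in α/β libraries. unc-13-RC, which starts at the same base and has 24 exons where unc-13-RA has 23, had 813, 766, 374 and 445 TPM in the α′/β′ libraries, against 842, 929.9 and 1014 TPM in the α/β libraries, and was not called (relative log2 difference -1.71, adjusted p = 0.612).

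In Taf4, which codes for a subunit of the general transcription factor TFIID, Taf4-RG had 208, 220.4, 82.8 and 300.3 TPM in the α′/β′ libraries, against 0, 0 and 0.07 TPM in the α/β libraries (relative log2 difference 6.74, adjusted p = 2.22e-07). It made up 13.9% to 50.8% of Taf4 in α′/β′ libraries and at most 0.0194% in α/β libraries. Rbfox1-RL, whose start lies 34591 bases upstream of that of Rbfox1-RE, had 0, 0, 0.5 and 1.33 TPM in the α′/β′ libraries, against 11.9, 154 and 243 TPM in the α/β libraries (relative log2 difference -5.67, adjusted p = 5.68e-07), with a median share of 20.1% of Rbfox1 in α/β. In nAChRalpha6, which rose in total, nAChRalpha6-RA was listed at 0 in all 4 α′/β′ libraries and had 0.12, 81.9 and 296 TPM in the α/β libraries (relative log2 difference -7.98, adjusted p = 8.4e-07). ICA69, which codes for a protein of dense-core vesicle formation, used ICA69-RA alone in the 4 α′/β′ libraries, at 10.4 to 61.9 TPM, and ICA69-RB for at least 82.0% of its TPM in the 6 α/β libraries, at 0.18 to 41.9 TPM (relative log2 difference 7.66, adjusted p = 1.04e-05). Their starts lie 273 bases apart on 3L. Each of these 6 genes kept an adjusted p under 0.05 in all alternatives run for transcript use. These alternatives did not include 1 value per subtype or subtype as a random effect, so the nesting of libraries in subtypes was not tested for transcript use.

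**Figure D4:**
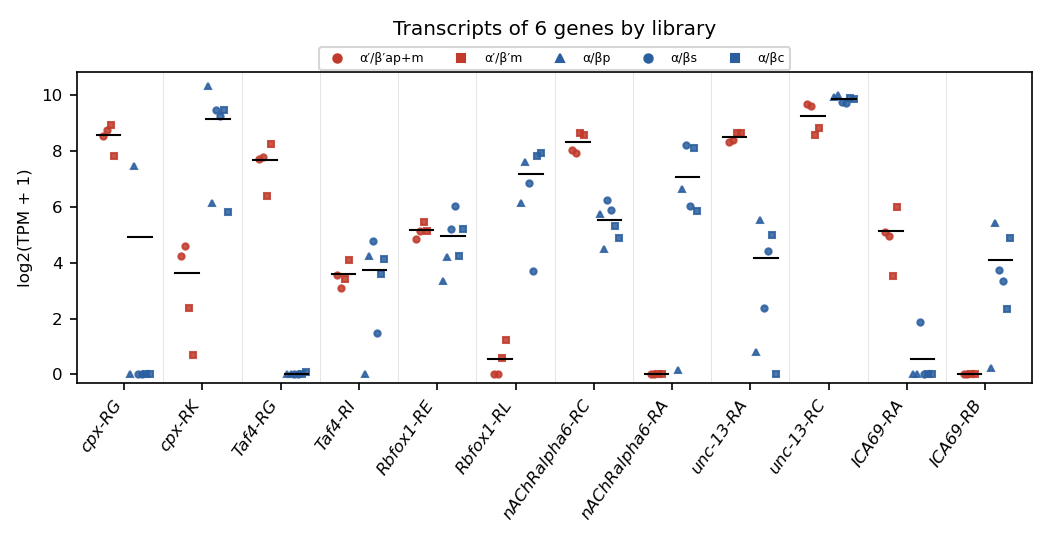
Levels of 12 transcripts of 6 genes in each library, as log2(TPM + 1). For each gene the transcripts with the largest positive and negative relative difference are shown, with the 4 α′/β′ libraries in red on the left, the 6 α/β libraries in blue on the right and black bars for the log2 of the class mean TPM plus 1. nAChRalpha6-RA and ICA69-RB are at 0 in all α′/β′ libraries, and Taf4-RG is at most 0.07 TPM in α/β.

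Called genes were often nested in other called genes. In the annotation, 1138 pairs of tested genes have 1 gene wholly inside the other. Where the outer gene was called, the inner gene was called in the same direction in 65 of 181 pairs (35.9%) and in the other direction in 1. Where the outer gene was not called, the inner gene was called in 18 of 957 pairs (1.88%). Put the other way, 65 of the 83 called inner genes (78.3%) lay inside a gene called in the same direction. The share was 37% of 73 pairs on the same strand and 35.2% of 108 pairs on opposite strands. Examples on the opposite strand are the taste receptor gene Gr77a in CG13252, the phenoloxidase gene PPO1 in Elk, KP78a and KP78b in pros, and the muscle gene Mf in Gyc88E, and on the same strand the cytochrome P450 gene Cyp6a2 in Epac and AANATL2 in Ddr. The exception was osp, which was higher, with Adhr inside it higher and Adh inside it lower. Left out of the count, these 65 genes leave 358 called genes, 166 higher and 192 lower.

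**Figure D5:**
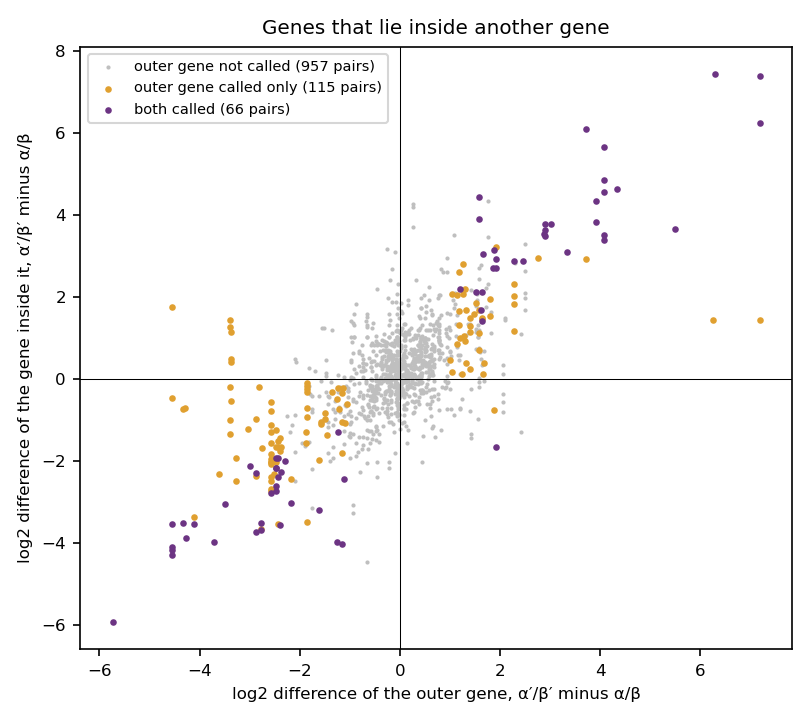
Log2 differences (α′/β′ minus α/β) of genes that lie inside another gene, on the y axis, against those of the gene around them, on the x axis. Each point is a pair, grey where the outer gene was not called (957 pairs), orange where it alone was called (115 pairs) and purple where both were called (66 pairs). All purple pairs but 1, Adh in osp, lie in the quadrants of equal direction.

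Neighbouring genes also shared calls. There were 16 runs of at least 3 neighbouring tested genes called in the same direction. The longest held 6 genes on 2L (2L:6179133-6323466), from smal through Ddr to CG13984, and 4 of them lie inside Ddr. A run on 2R held the cytochrome P450 genes Cyp4p1, Cyp4p2 and Cyp4p3, which all lie on the opposite strand inside hig, which was not called. A run on 2L held halo, Or22a and Or22b. Or22a, an odorant receptor of antennal neurons, had 7.63, 15.1, 56.3 and 46.5 TPM in the α′/β′ libraries, against 0.15, 0.885 and 4.65 TPM in the α/β libraries (log2 difference 2.93 ± 0.74, adjusted p = 0.0231), and lost its call in 5 of the 10 fits that each left out 1 library (adjusted p up to 0.112).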

How the data were processed

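RNA of Kenyon cell nuclei was measured by RNA-seq in 14 libraries, 10 of them compared here, grouped by driver line as labelled. The authors trimmed 5 bases from reads, quantified transcripts with kallisto against Ensembl release 91 of BDGP6, left out the entries of spike-ins, of the reporter and of ribosomal RNA, and deposited the rescaled TPM values per gene and per transcript. Whether strand was used is not given in the sources used here, and the read numbers that the study lists per library were not used. The study describes the 2 libraries of a line as independent biological replicates.

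Gene TPM were quantile-normalized as log2(TPM + 1) over the 14 libraries. The 8646 genes that reached 10 TPM in 1 or more libraries were fitted with limma (3.58.1, R 4.3.3) on class means of α′/β′, α/β and γ with a variance trend, and p-values were adjusted by Benjamini and Hochberg over all 8646 genes. In the text ± is the standard error for log2 differences and the SD for TPM. For transcript use, diffSplice of limma was run on genes with at least 2 transcripts tested, with Simes p-values per gene and adjusted p-values per transcript for the transcripts named. The number of genes above 0 TPM was compared by a two-sided exact permutation test over libraries, without regard to line. On simulated data, 24.5% of 200 genes changed by 1.5 on the log2 scale and 73.5% of 200 changed by 3 were called among 8646 genes, and for transcript use 20.5% of 200 genes among 3660 with a change of 3. False calls of unchanged genes numbered 1 and 9 in the comparison of genes, and 9 for transcript use. The simulated noise was independent between libraries, whereas the libraries of a subtype were correlated in the data (consensus correlation 0.231 for genes). These false call counts therefore do not carry over to the nested libraries.

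Positions are those of Ensembl release 115 (BDGP6), which held 8577 of the 8646 genes. Named genes are the 12 largest called differences in each direction whose TPM did not overlap and were not identical to those of another gene, up to 4 called members per direction and up to 2 abundant uncalled members of each of 29 lists, the label-check genes, the 6 genes with the smallest Simes p, and markers of other cells at 10 TPM or more. Where the text names a further gene, it was chosen after its values were seen. The result of 1 list is not reported here, and its members remain in the counts over all lists. The comparison, the lists and the tests were chosen with earlier results of these data known. Python 3.11.15, pandas 2.3.3, numpy 2.4.6, scipy 1.17.1 and matplotlib 3.10.9 were used for the other steps. The alternatives tried concern the pseudocount, scaling, filter, libraries, spread, subtype weighting and replicate block, and, chosen after seeing the data, covariates for marker levels and for genes above 0 TPM and the averaging of the 2 α′/β′ap+m libraries. Columns of the other 4 libraries (γ) entered the gene filter, the normalization and the estimate of the spread. Otherwise they are used here only for the count of genes nearer to one class.

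Replicate numbers did not pair the libraries: of 10 pairs of lines the correlation of replicate differences was between -0.0585 and 0.113, with 1 above 0.1.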

Additional observations from a re-analysis of the deposited data

Results flagged for a closer look

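A single library stood apart from the rest of its class (Dixon's test at the 95% level) in 30 of 208 groups of libraries over the named called genes, which is 14.4%. The nominal rate of about 1 in 20 needs independent, normally spread values. These TPM come in replicate pairs of driver lines, so the share cannot be set against that rate. Of these flags, 10 fell on α′/β′m replicate 1, 4 on α′/β′m replicate 2, 9 on α/βp replicate 2, 4 on α/βp replicate 1, 2 on α/βc replicate 1 and 1 on α/βc replicate 2. None fell on the 2 α′/β′ap+m libraries, which lie close together in most genes, so that neither can readily stand apart alone.

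Among the genes so marked in α′/β′m replicate 1, nAChRalpha6 was above the other α′/β′ libraries with 16638.6 TPM. Also above them there were qvr with 3287.16 TPM, heph with 516.37 TPM, Ten-a with 224.81 TPM, Fas2 with 196.05 TPM and CG34354 with 45.46 TPM. Below the others were kek1 with 469.54 TPM, zfh2 with 343.37 TPM, CG14186 with 33.41 TPM and mAChR-B with 24.0 TPM.

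In α′/β′m replicate 2, Pka-C3 with 311.68 TPM was below the other α′/β′ libraries, while Yp1 with 1234.57 TPM, Pde8 with 177.42 TPM and Pde6 with 18.91 TPM were above them.

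In α/βp replicate 2, Yp1 with 3888.46 TPM, Mhc with 182.17 TPM, mGluR with 97.19 TPM, Epac with 77.59 TPM, CrebA with 73.48 TPM, Pka-C3 with 72.28 TPM and Lac with 35.2 TPM were above the other α/β libraries, and dpr8 with 632.02 TPM and CG34354 with 185.92 TPM below them. In α/βp replicate 1, qvr with 2172.79 TPM, Pde9 with 498.88 TPM and Imp with 182.46 TPM were above and trio with 66.53 TPM below. DAT with 8.15 TPM and CG13984 with 2.12 TPM in α/βc replicate 1, and saturn with 1.53 TPM in α/βc replicate 2, were above the other α/β libraries, all far below the α′/β′ levels of the same genes.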

How the results depend on the processing

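No call shared between the main comparison and an alternative changed direction. The 423 calls (199 higher, 224 lower) became 692 (353 higher, 339 lower) when the 5 subtypes were fitted as separate means, and 160 (68 higher, 92 lower) with 1 value per subtype, which leaves fewer samples. Without normalization beyond TPM 142 genes were lower, and with median-ratio scaling 132 were higher, where the median log2 difference of all genes was 0.28 and 0.15 in place of 0.072. With the fat body and muscle level as a covariate, 235 were called (100 higher, 135 lower), and the 87 called list members became 57, against 41 with 1 value per subtype. Leaving out 1 library gave 323 to 450 calls (146 to 211 higher, 153 to 239 lower), 67 to 91 list members and 30 to 46 genes with differing transcript use. A pseudocount of 5 gave 68 such genes in place of 42. The difference in genes above 0 TPM was between 697.8 (without α/βp replicate 1, permutation p = 0.0952) and 1508.17 (without α′/β′m replicate 1, p = 0.0238) with 1 library left out, and it also passed without α/βs replicate 1 or α/βc replicate 2 (p = 0.0476 each).

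The replicate block, with numbers that do not pair the libraries, gave 403 calls (187 higher, 216 lower), 398 of them among the 423, 84 list members and 44 genes of transcript use.

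Of 104 called genes chosen by the naming rule, 53 kept the call under every alternative, 50 lost it with 1 value per subtype, 39 with the fat body and muscle covariate, 30 with a library left out, 26 with median-ratio scaling, 21 with the α′/β′ap+m libraries averaged, 20 without normalization, 19 with subtype as a random effect (314 calls, 148 higher and 166 lower), 12 with a covariate for genes above 0 TPM and 4 with the replicate block. Of the uncalled named genes, 14 were called under some alternative. With 2 replicates per line, no read depth and TPM listed at 0, differences in low genes are the least certain.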
